A study of Mus musculus with 10 samples.

Results

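The genes described here encode lysosomal enzymes and membrane proteins, together with TFEB and TFE3, transcription factors of lysosomal genes. They were taken by name as a list of 38 genes out of 22607 genes measured in 10 mRNA libraries of sorted mouse antigen-presenting cells. The rule uses no measured value, but the list was drawn up with results of these libraries known. All mice were wild-type C57BL/6 animals aged 8 weeks, and each of 5 groups had 2 libraries. The first set held MHCII+ cells, which carry MHC class II molecules for presenting antigen, sorted from colonic or splenic tissue. The second held colonic mononuclear phagocytes and dendritic cells sorted on the integrins CD11b and CD11c: CD11b+CD11c+ cells, CD11b+ cells and CD11c+ cells. The tissue and the 3 subsets were read from abbreviated sample names with the help of the series title and its design text. Nothing in the labels says that both libraries of a group are from different animals, so the p-values rest on a spread between libraries that could be purely technical. The sources used here give neither the number of animals pooled nor further sort markers.

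Lysosomes are acidic organelles that degrade material taken up by endocytosis, phagocytosis and autophagy. Their limiting membrane is built from heavily glycosylated proteins and transporters, and their lumen holds hydrolases that act at low pH and are mostly delivered by mannose phosphate receptors. TFEB and TFE3 are transcription factors of the MiT family that bind an E-box element shared by many lysosomal genes. Macrophages are rich in degradative lysosomes, whereas dendritic cells are known for limited lysosomal proteolysis, which preserves peptides for presentation.

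Library depth ranged from 12806139 to 41769042 estimated counts, and all 38 genes passed the filter on low counts in both sets, the lowest count of any of them in a library being 78, for Pla2g15. Levels of single genes are given as CPM, counts relative to the library size after TMM scaling within each set, and levels compared between genes as TPM, which are also per length. A gene was called higher or lower at an adjusted p under 0.05, and every adjusted p is from edgeR's quasi-likelihood F test with Benjamini-Hochberg adjustment over all genes tested unless another tool is named. The 10 macrophage markers summed to 3762 and 5075 TPM in CD11b+CD11c+ libraries, 3501 and 4040 TPM in CD11b+ libraries, but 68.0 and 559 TPM in CD11c+ libraries 1 and 2. The 8 markers of conventional dendritic cells summed to 296 and 217 TPM in CD11b+CD11c+, 111 and 112 TPM in CD11b+ and 844 and 875 TPM in CD11c+ libraries. Markers of other cell types were also detected in the MHCII+ libraries. Neutrophil markers summed to 1092 and 741 TPM in colonic MHCII+ libraries, against 16554.5 and 24244 TPM in splenic MHCII+ libraries, and B cell markers to 53.7 and 44.3 TPM in colonic MHCII+ libraries, against 962 and 1041 TPM in splenic ones. Epithelial markers summed to 2284 and 2550 TPM in colonic MHCII+ libraries, against 6.48 and 8.70 TPM in splenic ones.

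Together the 38 genes took up 0.798 to 1.26% of all gene counts per library. Their summed TPM was 5569 and 6483 in CD11b+CD11c+ libraries, 5347 and 5709 in CD11b+ libraries and 3797 and 4364 in CD11c+ libraries, and 3955 and 3882 in colonic MHCII+ libraries against 4424 and 4680 in splenic MHCII+ libraries. All 4 libraries of the CD11b-bearing subsets thus lay above the other 6. Psap, which encodes the precursor of the saposins that assist sphingolipid breakdown, had the highest TPM of the 38 genes on average and ranged from 1173 to 2036 TPM over the 10 libraries. It alone held 22.8 to 26.5% of the summed TPM in CD11b+CD11c+ and CD11b+ libraries and 47.2 and 46.7% in CD11c+ libraries, and 29.7 to 35.9% in MHCII+ libraries. The next genes in mean TPM were Laptm5 (545), Npc2 (497), Cd63 (283), Lamp1 (232) and Cd68 (211), and the lowest was Sgsh (4.49). The ratio between the group with the highest and that with the lowest mean TPM ran from 1.28 for Smpd1 to 11.8 for Cd63. The mean TPM was highest in CD11b+CD11c+ cells for 18 genes, in splenic MHCII+ cells for 10, in CD11b+ cells for 7, in CD11c+ cells for 3 and in colonic MHCII+ cells for 0. TPM of the 2 sets comes from separate sorts, so this order is a description without a test.

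**Figure D1:**
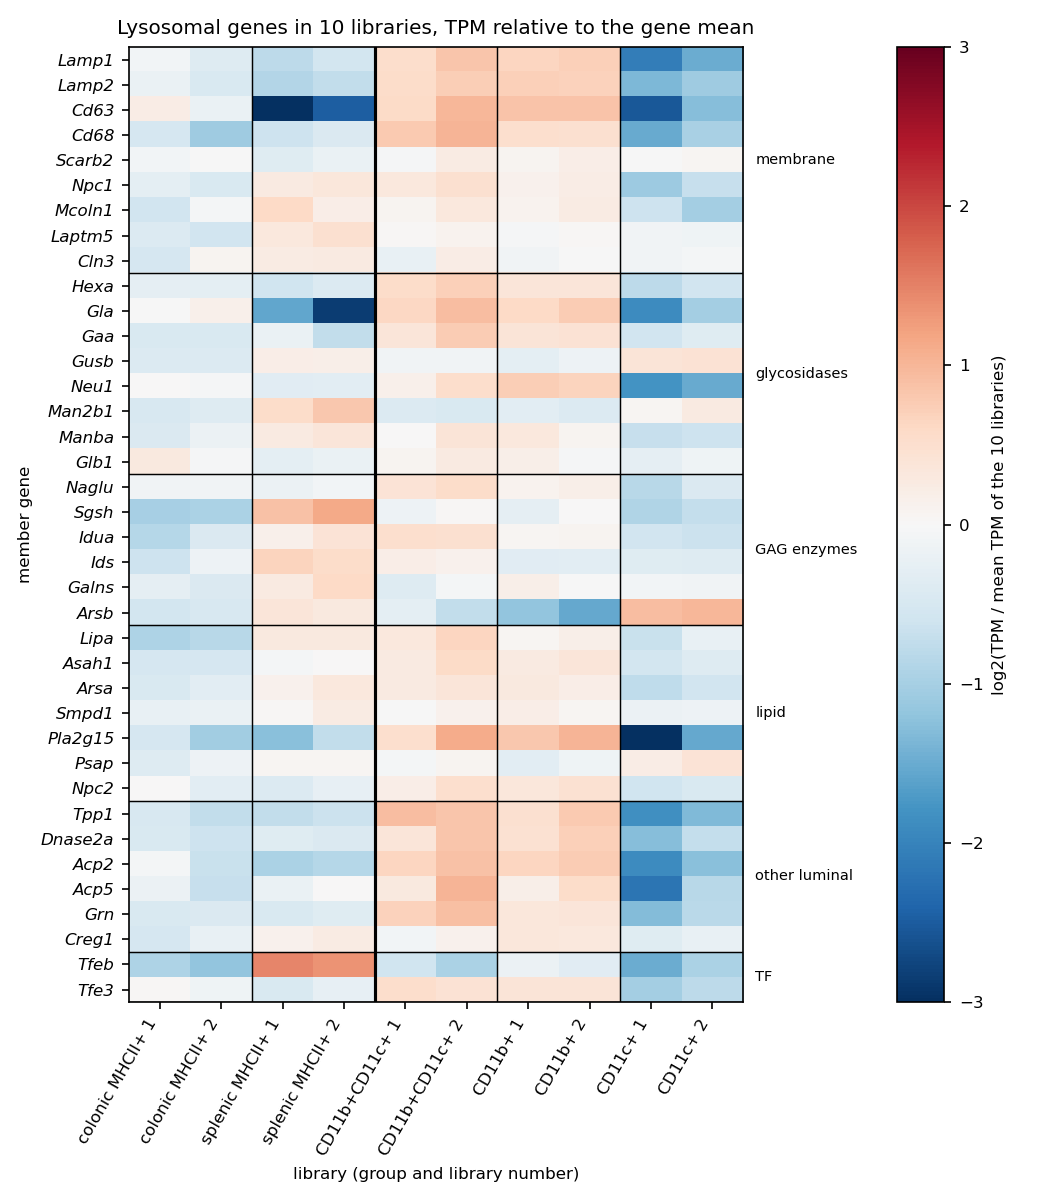
Heat map of the 38 lysosomal genes (vertical axis, ordered by role) in the 10 libraries (horizontal axis), coloured by log2 of a gene's TPM over its mean TPM in the 10 libraries. Red marks levels above that mean, as for most genes in the 4 CD11b+CD11c+ and CD11b+ libraries, and blue marks levels below it, as for most genes in the 2 CD11c+ libraries.

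The comparisons among colonic subsets asked how these transcripts differ between cells that carry CD11b, CD11c or both. Most lysosomal genes were higher in both CD11b-bearing subsets than in CD11c+ cells. In CD11b+ cells 26 of the 38 genes (68.4%) were higher and 4 (10.5%) lower than in CD11c+ cells, where 52% of all 14225 genes tested were called, 27% higher and 25% lower, and the median log2 fold change was 0.87 for the 38 genes and -0.02 for all genes. In CD11b+CD11c+ cells 27 (71.1%) were higher and 3 (7.89%) lower than in CD11c+ cells, where 43% of all genes were called, 20.4% higher and 22.5% lower, with a median log2 fold change of 1.03 for the 38 genes and -0.09 for all genes. The rise was at least 2-fold for 14 genes in CD11b+ cells and for 20 in CD11b+CD11c+ cells. The groups did not overlap for 36 of the 38 genes in either comparison, beside 80.6% of all genes for CD11b+ against CD11c+ cells and 75.4% for CD11b+CD11c+ against CD11c+ cells. Both comparisons use the same 2 CD11c+ libraries, so they are not independent. In bulk libraries fewer cells of a type and less RNA per cell cannot be told apart.

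**Figure D2:**
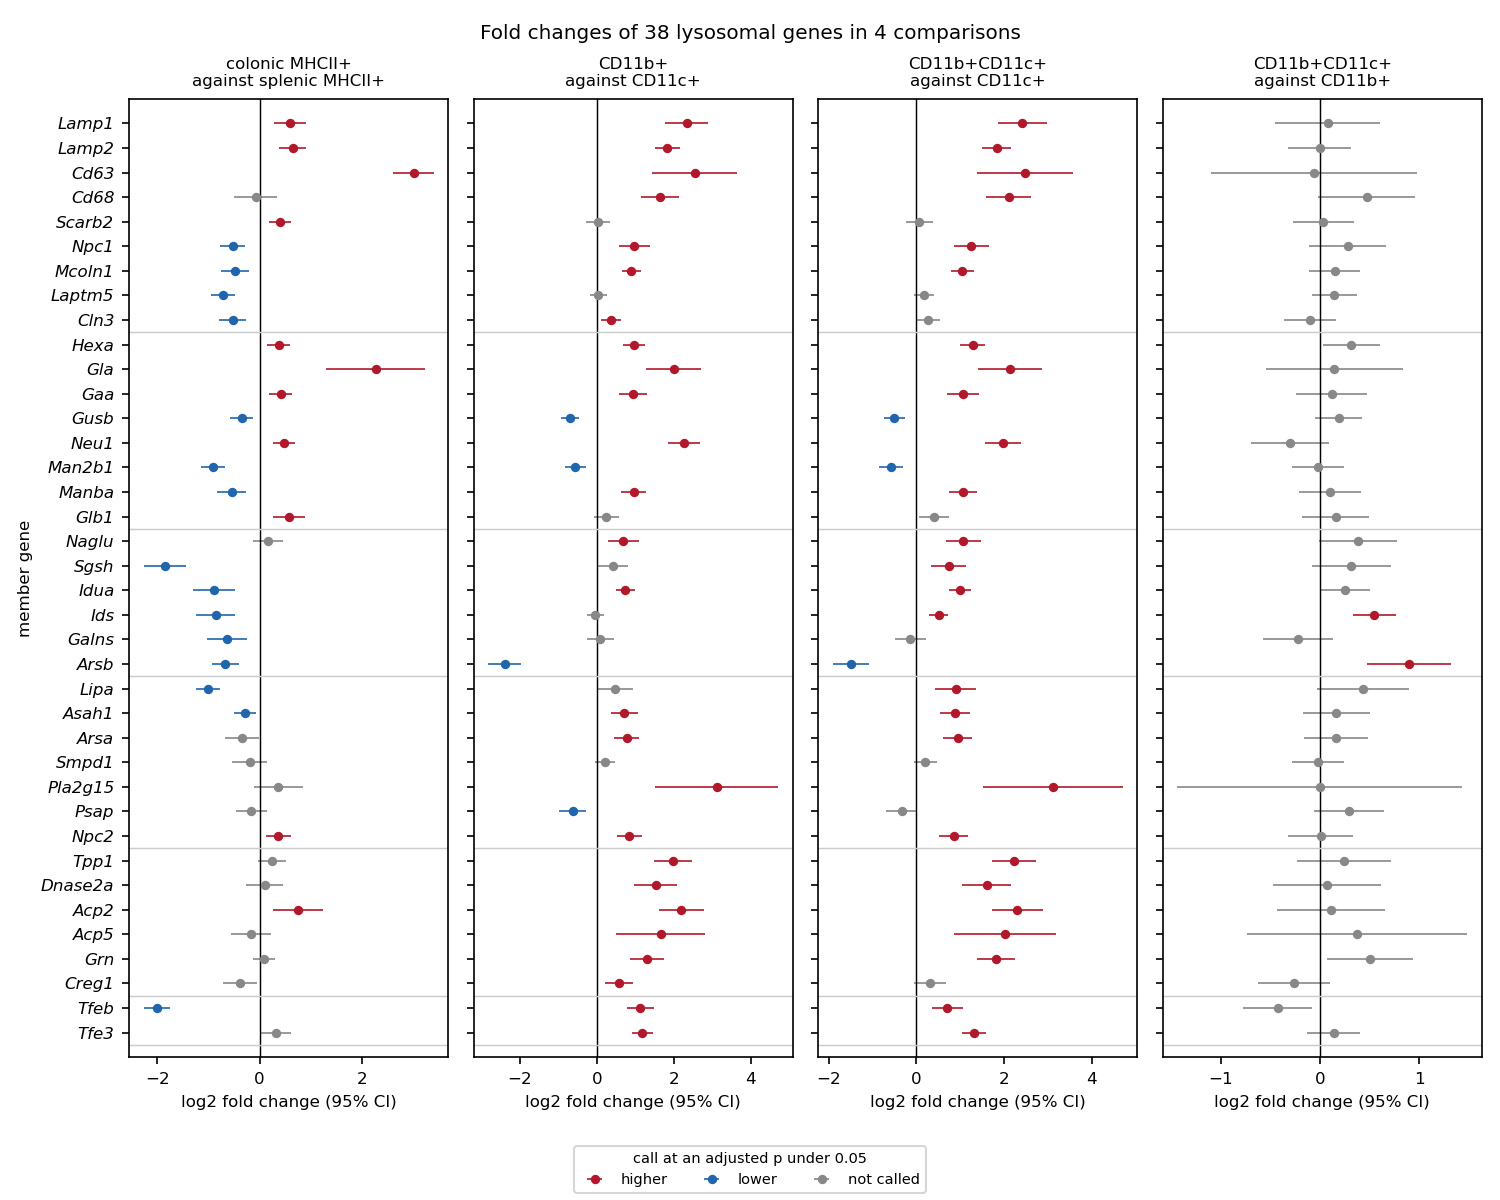
Log2 fold changes (horizontal axes) with 95% confidence intervals of the 38 lysosomal genes (vertical axis, ordered by role) in the 4 comparisons, each with its own scale, coloured by the call at an adjusted p under 0.05. Red points, called higher, number 11, 26, 27 and 2 from left to right, and blue points, called lower, 15, 4, 3 and 0.

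Membrane proteins showed some of the widest differences, with 7 of 9 higher in CD11b+ cells and 6 of 9 in CD11b+CD11c+ cells than in CD11c+ cells, and 0 lower. Lamp1, a main glycoprotein of the lysosomal membrane (ENSMUSG00000031447.7, mm10 chromosome 8, 13159161 to 13175338, plus strand), was at 717 and 901 CPM in CD11b+CD11c+ libraries, 733 and 799.8 CPM in CD11b+ libraries and 119 and 184 CPM in CD11c+ libraries. The CD11c+ libraries lay below the other 4, which overlapped, and Lamp1 rose in CD11b+CD11c+ cells (log2 fold change 2.41, SE 0.23, adjusted p = 9.7e-04) and in CD11b+ cells (log2 fold change 2.34, SE 0.23, adjusted p = 7.7e-04) relative to CD11c+ cells. Its partner Lamp2, also needed for the fusion of lysosomes with autophagosomes, was at 326 and 374 CPM in CD11b+CD11c+, 345 and 356 CPM in CD11b+ and 87.4 and 109 CPM in CD11c+ libraries. The CD11c+ libraries again lay below the other 4. Cd63, a tetraspanin of late endosomes and lysosomes (ENSMUSG00000025351.14, mm10 chromosome 10, 128900989 to 128912822, plus strand), was at 406 and 534 CPM in CD11b+CD11c+ libraries, 485 and 495 CPM in CD11b+ libraries and 44.6 and 124 CPM in CD11c+ libraries. It was high in all 4 CD11b-bearing libraries, and CD11c+ library 1 was the lowest. Relative to CD11c+ cells it rose in CD11b+CD11c+ cells (log2 fold change 2.48, SE 0.45, adjusted p = 0.0072) and in CD11b+ cells (log2 fold change 2.54, SE 0.45, adjusted p = 0.0055). Its size depends on the CD11c+ library used: these log2 fold changes were 1.91 and 1.97 without CD11c+ library 1, and 3.39 and 3.45 without CD11c+ library 2. Cd68, macrosialin, a LAMP family protein of mononuclear phagocytes, was at 594 and 709 CPM in CD11b+CD11c+ libraries, 465 and 476 CPM in CD11b+ libraries and 121 and 182 CPM in CD11c+ libraries, so that the 3 subsets did not overlap.

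The remaining membrane protein genes had log2 fold changes of at most 1.26 between subsets. Npc1, which exports cholesterol from the lysosome, was at 110.1 and 126 CPM in CD11b+CD11c+ libraries, 92.9 and 102 CPM in CD11b+ libraries and 42.01 and 57.01 CPM in CD11c+ libraries. Mcoln1, the cation channel that releases lysosomal calcium, was at 51.8 and 54.3 CPM in CD11b+CD11c+, 44.3 and 51.2 CPM in CD11b+ and 26.01 and 25.2 CPM in CD11c+ libraries. Both were called higher in both CD11b-bearing subsets, and their CD11c+ libraries lay lowest. Cln3, a membrane protein whose loss causes juvenile Batten disease in humans, was at 77.03 and 86.9 CPM in CD11b+CD11c+ libraries, 86.2 and 89.7 CPM in CD11b+ libraries and 63.5 and 72.5 CPM in CD11c+ libraries, and was called higher in CD11b+ cells (adjusted p = 0.029) but not in CD11b+CD11c+ cells (adjusted p = 0.089), subsets that did not differ past the threshold (adjusted p = 0.61). The call in CD11b+ cells was lost in 6 of 11 alternatives, with adjusted p from 0.052 to 0.94: without a count filter, with the effective length offset, with limma on log2(TPM + 1), without CD11c+ library 1 and without either CD11b+ library. With the effective length offset the log2 fold change was -0.05 and with limma 0.02, so that its direction between CD11b+ and CD11c+ cells differed with the processing. Scarb2, the receptor that carries glucocerebrosidase to lysosomes, was at 98.9 and 121 CPM in CD11b+CD11c+, 101 and 114 CPM in CD11b+ and 101 and 109 CPM in CD11c+ libraries. Laptm5, a lysosomal protein of blood cells that promotes degradation of antigen receptors, was at 678 and 715 CPM in CD11b+CD11c+, 600.1 and 659 CPM in CD11b+ and 606 and 619 CPM in CD11c+ libraries. Neither of these passed the test in any subset comparison, and their 95% intervals for CD11b+ against CD11c+ cells were -0.28 to 0.34 and -0.19 to 0.27 on the log2 scale.

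**Figure D3:**
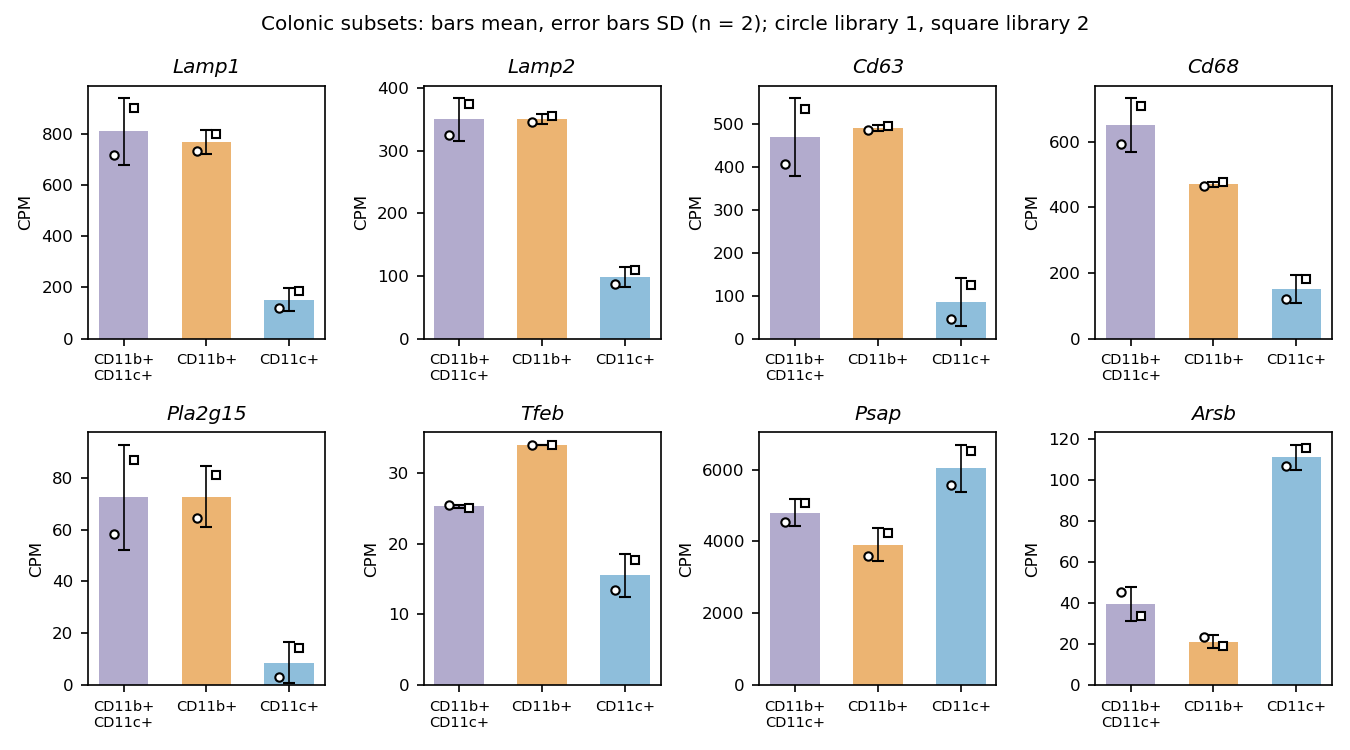
CPM (vertical axes) of 8 lysosomal genes in the 3 colonic subsets (horizontal axes), with bars for the mean, error bars for the SD of 2 libraries and a symbol for each library. Lamp1, Lamp2, Cd63, Cd68, Pla2g15 and Tfeb are lowest in the 2 CD11c+ libraries, whereas Psap and Arsb are highest there.

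Promoter sequences are shown for Lamp1 and Gla, which were among the genes with wide differences, and for Mcoln1, since all 3 hold the E-box core CACGTG, the centre of the element that TFEB and TFE3 bind. They are RefSeq windows on GRCm38.p6, from 250 bases before to 50 bases after the annotated start, written 5′ to 3′ on the gene's strand with the core in capitals.
Lamp1, chr8:13158911-13159210, plus strand: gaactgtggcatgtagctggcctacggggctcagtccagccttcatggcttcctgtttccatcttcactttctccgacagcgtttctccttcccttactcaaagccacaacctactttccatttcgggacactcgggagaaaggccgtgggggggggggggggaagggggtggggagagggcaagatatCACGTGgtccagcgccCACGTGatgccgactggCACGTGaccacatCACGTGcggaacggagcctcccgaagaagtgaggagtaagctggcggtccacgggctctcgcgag
Mcoln1, chr8:3500269-3500568, plus strand: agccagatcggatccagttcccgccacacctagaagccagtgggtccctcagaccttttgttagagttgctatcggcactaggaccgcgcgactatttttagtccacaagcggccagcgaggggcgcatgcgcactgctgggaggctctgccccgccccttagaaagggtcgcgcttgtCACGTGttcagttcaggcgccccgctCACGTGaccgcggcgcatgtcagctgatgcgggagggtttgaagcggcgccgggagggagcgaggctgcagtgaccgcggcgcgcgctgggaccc
Gla, chrX:134600956-134601255, minus strand: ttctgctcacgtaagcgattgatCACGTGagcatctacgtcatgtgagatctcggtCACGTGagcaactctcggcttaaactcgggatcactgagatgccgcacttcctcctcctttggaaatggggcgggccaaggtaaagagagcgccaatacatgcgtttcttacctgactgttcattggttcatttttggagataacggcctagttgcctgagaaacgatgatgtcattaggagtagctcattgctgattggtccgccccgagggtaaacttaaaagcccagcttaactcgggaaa
The Lamp1 window holds 4 copies, whose first bases lie 61, 45, 28 and 15 bases before the start. The Mcoln1 window holds 2, at 71 and 45 bases before the start, and the Gla window 2, at 227 and 194 bases before it. A window was given for 35 of the 38 genes, all but Galns, Asah1 and Npc1. The core, which reads the same on both strands, stood in 9 of the 35 (25.7%): Lamp1, Mcoln1, Cln3, Gla, Gaa, Glb1, Naglu, Sgsh and Arsa. Of all genes with a window, 2187 of 27025 (8.09%) held it. A gene with several windows, such as Cln3, was counted if any of them did. The longer form TCACGTG, which contains the core and was searched on both strands, was found for the same 9 genes and for 1160 of the 27025 (4.29%). The 9 genes with the core had a median log2 fold change of 1.05 for CD11b+CD11c+ against CD11c+ cells and 0.78 for CD11b+ against CD11c+ cells, with 7 of 9 called higher and 0 lower in each. The 26 genes without it had medians of 1.03 and 0.96, with 18 and 17 of 26 called higher and 3 and 4 lower. Between colonic and splenic MHCII+ cells 4 of the 9 were called higher and 3 lower, and of the 26, 7 higher and 9 lower. A match describes these letters only and is not a bound site, and Cd63 and Pla2g15, with wide differences, had windows without the core. The only Cd63 window, chr10:128909095-128909394, lies inside the gene span given above, so the start of that span was not searched.

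Lamp2 transcripts differ at the end of the coding sequence, which gives the protein alternative membrane-spanning and cytosolic parts. The 3 coding isoforms share their first 1107 bases, and the last 141 to 144 bases, from base 1108 of the coding sequence on, are shown since they carry the only difference that the deposited transcript estimates could use. They were read from the annotated mm10 transcripts on the minus strand of chromosome X, with the last 15 bases, the final codons and the stop codon, in capitals.
Lamp2-201: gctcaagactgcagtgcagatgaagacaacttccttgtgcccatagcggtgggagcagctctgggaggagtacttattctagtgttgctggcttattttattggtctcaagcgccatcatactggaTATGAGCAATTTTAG
Lamp2-202: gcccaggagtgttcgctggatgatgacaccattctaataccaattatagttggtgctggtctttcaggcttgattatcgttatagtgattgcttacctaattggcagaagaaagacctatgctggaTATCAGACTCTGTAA
Lamp2-203: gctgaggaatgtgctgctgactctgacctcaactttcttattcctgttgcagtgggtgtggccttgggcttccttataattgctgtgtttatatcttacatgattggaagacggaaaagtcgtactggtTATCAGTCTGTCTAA
Aligned without gaps, the tail of Lamp2-201 had 53.9% of its bases in common with that of Lamp2-202 and 40.4% with that of Lamp2-203. Lamp2-202 held 63.4 and 68.2% of the TPM of the gene in CD11b+CD11c+ libraries, 67.6 and 71.3% in CD11b+ libraries and 70.9 and 65.9% in CD11c+ libraries. It held 64.5 and 61.3% in colonic MHCII+ libraries, against 62.8 and 60.9% in splenic MHCII+ libraries. Lamp2-201 held 28.4 to 37.5% in the 10 libraries. The shares of the 3 subsets overlapped, whereas the CPM of the gene in CD11c+ libraries did not overlap with that of the other subsets.

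Of the 8 glycosidases, 5 were higher and 2 lower in each CD11b-bearing subset than in CD11c+ cells. Neu1, the lysosomal sialidase, was at 89.2 and 116 CPM in CD11b+CD11c+ libraries, 127 and 125 CPM in CD11b+ libraries and 23.1 and 29.3 CPM in CD11c+ libraries. It was lowest in the CD11c+ libraries and rose in CD11b+ cells (log2 fold change 2.27, SE 0.17, adjusted p = 4.1e-04). Gla, alpha-galactosidase A, which breaks down globosides (ENSMUSG00000031266.6, mm10 chromosome X, 134588149 to 134601125, minus strand), was at 195 and 244 CPM in CD11b+CD11c+, 183 and 214 CPM in CD11b+ and 34.7 and 65.03 CPM in CD11c+ libraries, with the CD11c+ libraries below the other 4. Hexa, a subunit of beta-hexosaminidase that acts on gangliosides, was at 526 and 594 CPM in CD11b+CD11c+ libraries, 442 and 458 CPM in CD11b+ libraries and 210.4 and 249.996 CPM in CD11c+ libraries. Gaa, which degrades glycogen, was at 105 and 121 CPM in CD11b+CD11c+, 98.1 and 109 CPM in CD11b+ and 47.1 and 60.6 CPM in CD11c+ libraries. Manba, beta-mannosidase, was at 37.97 and 45.3 CPM in CD11b+CD11c+, 40.8 and 36.6 CPM in CD11b+ and 21.04 and 18.8 CPM in CD11c+ libraries. These 5 enzymes were called higher in both CD11b-bearing subsets.

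The alpha-mannosidase and beta-glucuronidase genes went the other way. Man2b1, which trims mannose from glycoproteins, was at 573 and 566 CPM in CD11b+CD11c+ libraries, 586 and 569 CPM in CD11b+ libraries and 778 and 919 CPM in CD11c+ libraries. It fell relative to CD11c+ cells in CD11b+CD11c+ cells (log2 fold change -0.58, SE 0.11, adjusted p = 0.0081) and in CD11b+ cells (log2 fold change -0.56, SE 0.11, adjusted p = 0.0074). Gusb, beta-glucuronidase, was at 179 and 179 CPM in CD11b+CD11c+, 148 and 167 CPM in CD11b+ and 244 and 263 CPM in CD11c+ libraries, and fell as well in CD11b+CD11c+ cells (log2 fold change -0.50, SE 0.10, adjusted p = 0.0089) and in CD11b+ cells (log2 fold change -0.69, SE 0.10, adjusted p = 0.0025). In the comparison of CD11b+CD11c+ with CD11c+ cells both calls were lost without CD11b+CD11c+ library 2 (log2 fold change -0.51 for Man2b1 and -0.45 for Gusb). Glb1, beta-galactosidase, was at 48.2 and 56.9 CPM in CD11b+CD11c+ libraries, 49.8 and 44.5 CPM in CD11b+ libraries and 36.1 and 43.3 CPM in CD11c+ libraries, and did not pass in any subset comparison. This depends on the processing. For CD11b+CD11c+ against CD11c+ cells Glb1 was called with RLE scaling, without a count filter, with DESeq2 and in the fit of all 10 libraries.

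The 6 enzymes that degrade glycosaminoglycans were mixed, with 4 higher and 1 lower in CD11b+CD11c+ cells and 2 higher and 1 lower in CD11b+ cells than in CD11c+ cells. Arsb, the sulfatase of dermatan and chondroitin sulfate (ENSMUSG00000042082.7, mm10 chromosome 13, 93771630 to 93943016, plus strand), was at 45.4 and 33.7 CPM in CD11b+CD11c+ libraries, 23.4 and 19.1 CPM in CD11b+ libraries and 107 and 116 CPM in CD11c+ libraries. The 3 subsets did not overlap, and Arsb was the only one of the 38 genes called different in all 3 subset comparisons: it was lower than in CD11c+ cells in CD11b+CD11c+ cells (log2 fold change -1.49, SE 0.17, adjusted p = 0.0016) and in CD11b+ cells (log2 fold change -2.39, SE 0.18, adjusted p = 4.0e-04), and higher in CD11b+CD11c+ than in CD11b+ cells (log2 fold change 0.90, SE 0.17, adjusted p = 0.027). Ids, iduronate sulfatase, was at 42.9 and 41.1 CPM in CD11b+CD11c+ libraries, 28.1 and 29.2 CPM in CD11b+ libraries and 29.4 and 29.6 CPM in CD11c+ libraries. It was highest in CD11b+CD11c+ cells, and called higher there than in CD11b+ cells (log2 fold change 0.55, SE 0.09, adjusted p = 0.015) and than in CD11c+ cells (adjusted p = 0.006).

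The other genes of this class act on heparan, dermatan or keratan sulfate. Naglu, an N-acetylglucosaminidase, was at 40.9 and 45.9 CPM in CD11b+CD11c+ libraries, 31.7 and 34.9 CPM in CD11b+ libraries and 17.6 and 23.9 CPM in CD11c+ libraries. Idua, iduronidase, was at 31.3 and 34.8 CPM in CD11b+CD11c+, 26.8 and 28.5 CPM in CD11b+ and 16.8 and 16.2 CPM in CD11c+ libraries. Both were called higher in both CD11b-bearing subsets than in CD11c+ cells, but the call of Naglu in CD11b+ cells was lost without either CD11b+ library (adjusted p = 0.053 and 0.092 without libraries 1 and 2). Sgsh, the heparan sulfamidase, was at 11.2 and 12.8 CPM in CD11b+CD11c+ libraries, 9.84 and 9.42 CPM in CD11b+ libraries and 6.67 and 7.78 CPM in CD11c+ libraries, and was called higher in CD11b+CD11c+ cells (adjusted p = 0.015) but not in CD11b+ cells (adjusted p = 0.076), while the test between these subsets gave an adjusted p of 0.29. Its call in CD11b+CD11c+ cells was lost without CD11c+ library 1 (adjusted p = 0.067) and without CD11b+CD11c+ library 2 (0.069). Galns, which removes sulfate from keratan sulfate, was at 15.3 and 19.6 CPM in CD11b+CD11c+, 21.2 and 19.6 CPM in CD11b+ and 18.9 and 19.4 CPM in CD11c+ libraries and did not pass in any subset comparison.

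Among 7 genes of lipid breakdown and binding, 5 were higher and 0 lower in CD11b+CD11c+ cells, and 4 higher and 1 lower in CD11b+ cells, than in CD11c+ cells. Pla2g15, the lysosomal phospholipase (ENSMUSG00000031903.7, mm10 chromosome 8, 106150399 to 106164715, plus strand), was at 58.2 and 86.9 CPM in CD11b+CD11c+ libraries, 64.4 and 80.98 CPM in CD11b+ libraries and 2.96 and 14.3 CPM in CD11c+ libraries. CD11c+ library 1 was the lowest by far, and the gene rose relative to CD11c+ cells in CD11b+CD11c+ cells (log2 fold change 3.11, SE 0.66, adjusted p = 0.012) and in CD11b+ cells (log2 fold change 3.12, SE 0.66, adjusted p = 0.0098). Its size rests on which CD11c+ library is used: without CD11c+ library 1 the log2 fold changes were 2.33 and 2.34, and without CD11c+ library 2 they were 4.60 and 4.61. The call in CD11b+CD11c+ cells was lost without CD11b+CD11c+ library 2 (adjusted p = 0.055).

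Psap was the gene of this class called lower in CD11b+ cells. It was at 4538 and 5062 CPM in CD11b+CD11c+ libraries, 3580.3 and 4246 CPM in CD11b+ libraries and 5573 and 6504 CPM in CD11c+ libraries. The CD11c+ libraries were highest, and Psap fell in CD11b+ relative to CD11c+ cells (log2 fold change -0.63, SE 0.15, adjusted p = 0.014), a call lost without CD11b+ library 1 (adjusted p = 0.073). In CD11b+CD11c+ cells it did not pass (log2 fold change -0.33, adjusted p = 0.11). Asah1, acid ceramidase, was at 249.8 and 310.4 CPM in CD11b+CD11c+ libraries, 236 and 263 CPM in CD11b+ libraries and 141 and 163 CPM in CD11c+ libraries. Npc2, the luminal cholesterol carrier that works with NPC1, was at 294 and 357 CPM in CD11b+CD11c+, 308 and 339 CPM in CD11b+ and 166 and 194 CPM in CD11c+ libraries. Arsa, the sulfatase of sulfatides, was at 34.1 and 39.7 CPM in CD11b+CD11c+, 35.5 and 30.6 CPM in CD11b+ and 18.1 and 20.4 CPM in CD11c+ libraries. These 3 were called higher in both CD11b-bearing subsets, and the call of Asah1 in CD11b+ cells was lost without CD11b+ library 2 (adjusted p = 0.060). Lipa, acid lipase, which hydrolyses cholesteryl esters, was at 107 and 136 CPM in CD11b+CD11c+ libraries, 84.6 and 95.2 CPM in CD11b+ libraries and 54.4 and 76.3 CPM in CD11c+ libraries, and was called higher in CD11b+CD11c+ cells only (adjusted p = 0.013; for CD11b+ cells 0.087), a difference between subsets that did not itself pass (adjusted p = 0.22). Without CD11b+CD11c+ library 2 its call was lost (adjusted p = 0.059), and in CD11b+ cells it was called without CD11c+ library 2, in the fit of all 10 libraries and with a replicate block. Smpd1, acid sphingomyelinase, was at 22.6 and 25.3 CPM in CD11b+CD11c+, 24.9 and 23.5 CPM in CD11b+ and 20.2 and 21.4 CPM in CD11c+ libraries and did not pass in any subset comparison.

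All 6 of the remaining luminal proteins were higher in CD11b+ cells, and 5 of 6 in CD11b+CD11c+ cells, than in CD11c+ cells. Acp2, the lysosomal acid phosphatase, was at 60.3 and 70.4 CPM in CD11b+CD11c+ libraries, 56.7 and 64.2 CPM in CD11b+ libraries and 10.05 and 16.5 CPM in CD11c+ libraries. It was lowest in the CD11c+ libraries and rose in CD11b+CD11c+ cells (log2 fold change 2.31, SE 0.24, adjusted p = 0.0012). Tpp1, a tripeptidyl peptidase, was at 155 and 192 CPM in CD11b+CD11c+, 142 and 151 CPM in CD11b+ and 29.9 and 44.04 CPM in CD11c+ libraries. Grn, progranulin, a regulator of lysosomal function, was at 822 and 967 CPM in CD11b+CD11c+ libraries, 613 and 646 CPM in CD11b+ libraries and 210.1 and 297 CPM in CD11c+ libraries. Its 3 subsets did not overlap. Acp5, the tartrate-resistant acid phosphatase, was at 158 and 259.9 CPM in CD11b+CD11c+, 137 and 185 CPM in CD11b+ and 28.2 and 74.4 CPM in CD11c+ libraries, with log2 fold changes of 2.03 in CD11b+CD11c+ and 1.66 in CD11b+ cells. These were 1.48 and 1.11 without CD11c+ library 1, and 2.88 and 2.51 without CD11c+ library 2. The call in CD11b+CD11c+ cells was lost without CD11b+CD11c+ library 2 (adjusted p = 0.082), and that in CD11b+ cells without CD11b+ library 1 (0.067) or library 2 (0.13). Dnase2a, the acid nuclease that degrades engulfed DNA, was at 55.2 and 72.8 CPM in CD11b+CD11c+ libraries, 53.6 and 67.9 CPM in CD11b+ libraries and 17.2 and 25.04 CPM in CD11c+ libraries. Tpp1, Grn, Acp5 and Dnase2a were called higher in both CD11b-bearing subsets. Creg1, a secreted and lysosomal glycoprotein, was at 53.9 and 68.8 CPM in CD11b+CD11c+, 71.7 and 75.3 CPM in CD11b+ and 44.6 and 53.8 CPM in CD11c+ libraries, and was called higher in CD11b+ cells (adjusted p = 0.02) but not in CD11b+CD11c+ cells (adjusted p = 0.13), while the test between these subsets gave an adjusted p of 0.34. Its call in CD11b+ cells was lost without CD11c+ library 1 (adjusted p = 0.084), without CD11b+ library 1 (0.075) and without CD11b+ library 2 (0.11).

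Both transcription factors were called higher in both CD11b-bearing subsets. Tfeb (ENSMUSG00000023990.18, mm10 chromosome 17, 47737030 to 47792419, plus strand) was at 25.5 and 25.1 CPM in CD11b+CD11c+ libraries, 34.1 and 33.98 CPM in CD11b+ libraries and 13.4 and 17.7 CPM in CD11c+ libraries. The 3 subsets did not overlap, and relative to CD11c+ cells Tfeb rose in CD11b+CD11c+ cells (log2 fold change 0.71, SE 0.15, adjusted p = 0.011) and in CD11b+ cells (log2 fold change 1.14, SE 0.14, adjusted p = 0.0018). The call in CD11b+CD11c+ cells was lost with a correction for effective length (log2 fold change 0.41, adjusted p = 0.22) and with limma on log2(TPM + 1) (0.40, adjusted p = 0.20). Up to 55.7% of the TPM of Tfeb in a library was assigned to transcripts shorter than 50% of its longest coding sequence, so its level is less certain than that of Tfe3. Tfe3 was at 91.5 and 92.02 CPM in CD11b+CD11c+ libraries, 82.8 and 83.9 CPM in CD11b+ libraries and 33.4 and 40.4 CPM in CD11c+ libraries. Its CD11c+ libraries lay lowest, and relative to them it rose in CD11b+CD11c+ cells (log2 fold change 1.32, SE 0.11, adjusted p = 7.7e-04) and in CD11b+ cells (log2 fold change 1.18, SE 0.11, adjusted p = 7.2e-04).

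These genes also separated both CD11c+ libraries from one another. Of the 38 genes, 35 had a higher CPM in CD11c+ library 2 than in library 1, with a median ratio of 1.20, beside 53.4% of all genes tested with a median ratio of 1.02. This held whatever the call: of the genes called higher in CD11b+ than in CD11c+ cells, 23 of 26 were higher in library 2 (median ratio 1.30), of those called lower 4 of 4 (1.12) and of those not called 8 of 8 (1.07). Macrophage markers moved the same way between these libraries, with Csf1r, the receptor for the main macrophage growth factor, at 365 and 471 TPM in CD11b+CD11c+ libraries, 373 and 384 TPM in CD11b+ libraries, and 8.74 and 51.2 TPM in CD11c+ libraries 1 and 2. All 10 macrophage markers were called higher in both CD11b-bearing subsets. Other markers moved with the subsets as well. Neutrophil markers summed to 83.8 and 93.9 TPM in CD11b+CD11c+ libraries, 1247 and 1102 TPM in CD11b+ libraries and 1.11 TPM in each CD11c+ library, where S100a8, Camp, Ngp and Mmp8 were listed at 0, and 4 and 7 of 7 tested were higher in CD11b+CD11c+ and in CD11b+ than in CD11c+ cells. Plasma cell markers summed to 8866 and 6965 TPM in CD11b+CD11c+, 12096 and 9424 TPM in CD11b+ and 21487 and 27191 TPM in CD11c+ libraries, and T cell markers to 9.04 to 22.1 TPM in the 4 CD11b-bearing libraries, against 382 and 106 TPM in CD11c+ libraries 1 and 2. All 5 genes of each of these lists were called lower in both CD11b-bearing subsets. Eosinophil markers were higher for 4 of 5 tested in each CD11b-bearing subset, with 1 lower in CD11b+CD11c+ cells and 0 in CD11b+ cells. Epithelial markers were higher for 1 of 7 in CD11b+CD11c+ cells and 5 of 7 in CD11b+ cells. Stromal and endothelial markers were lower for 4 of 6 in CD11b+CD11c+ cells and higher for 5 of 6 in CD11b+ cells than in CD11c+ cells. The part of these markers in the lysosomal differences was not tested. Without CD11c+ library 1 the median log2 fold change of the 38 genes was 0.87 in CD11b+CD11c+ and 0.76 in CD11b+ cells, beside -0.09 and 0.0005 for all genes. Without CD11c+ library 2 the medians were 1.02 and 0.89, beside -0.09 and -0.02 for all genes.

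Between the CD11b-bearing subsets few of these genes could be told apart. In CD11b+CD11c+ cells 2 of the 38 genes (5.26%), Arsb and Ids, were higher than in CD11b+ cells and 0 lower, where 9.63% of all genes were called in either direction, 3.79% higher and 5.84% lower. The median log2 fold change was 0.14 for the 38 genes and 0.01 for all genes, and the groups did not overlap for 19 of the 38, beside 59.4% of all genes. These 2 calls were lost without CD11b+CD11c+ library 1 and without either CD11b+ library. The 95% interval of the log2 difference was -0.45 to 0.60 for Lamp1 and -0.33 to 0.32 for Lamp2, and as wide as -1.10 to 0.98 for Cd63 and -1.44 to 1.43 for Pla2g15. Differences of these genes within such bounds remain compatible with these libraries. Grn and Cd68, with higher values in both CD11b+CD11c+ libraries than in either CD11b+ library, did not pass (adjusted p = 0.14 and 0.21). Tfeb (log2 fold change -0.43, adjusted p = 0.13) and Tfe3 (0.14, adjusted p = 0.49) did not pass either. Conventional dendritic cell markers were higher in CD11b+CD11c+ cells for 7 of 8 genes, and neutrophil markers lower for 5 of 7 tested. Stromal and endothelial markers were lower for 4 of 6 and higher for 0, and eosinophil markers lower for 3 of 5 tested and higher for 1.

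The remaining comparison asked how the same transcripts differ between MHCII+ cells of the colon and of the spleen. The 38 genes split: 11 (28.9%) were higher and 15 (39.5%) lower in colonic MHCII+ cells, where 31.6% of all 15076 genes tested were called higher and 28.7% lower. The 68.4% of the genes called in either direction stands beside 60.3% of all genes, and the median log2 fold change was -0.16 for the 38 genes and 0.02 for all genes. The groups did not overlap for 35 of the 38 genes, beside 83.2% of all genes. Without splenic MHCII+ library 1 the median log2 fold change was -0.20 for the 38 genes and 0.05 for all genes. With limma on log2(TPM + 1), 3 of the 38 were higher, where 54.4% of all genes were called in either direction. Markers of many cell types differed between these gates, beside the neutrophil, B cell and epithelial ones given above. Macrophage markers summed to 962 and 892 TPM in colonic MHCII+ libraries, against 319 and 372 TPM in splenic ones, with 7 of 10 called higher and 1 lower. Conventional dendritic cell markers summed to 294 and 339 TPM in colonic MHCII+ libraries, against 857 and 789 TPM in splenic ones, with 7 of 8 called lower and 1 higher. Plasma cell markers summed to 10456 and 10851 TPM in colonic MHCII+ libraries, against 174 and 163 TPM in splenic ones, with 5 of 5 called higher. Colonic MHCII+ cells thus had more transcripts of macrophage and plasma cell markers and fewer of dendritic cell markers. T cell markers were lower for 4 of 5 genes and higher for 0, and eosinophil markers lower for 4 of 7 and higher for 2. Stromal and endothelial markers were higher for 4 of 6 and lower for 2, the endothelial genes Pecam1 and Cdh5. General leukocyte and MHC class II genes were lower for 2 of 6 and higher for 0. Ptprc, a general leukocyte marker, was at 188 and 196 TPM in colonic MHCII+ libraries, against 626 and 659 TPM in splenic ones. Ciita, a regulator of class II genes, was at 9.87 and 18.7 TPM in colonic MHCII+ libraries, against 146 and 140 TPM in splenic ones. The part of all these markers in the lysosomal differences was not tested.

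Of the 9 membrane proteins 4 were higher and 4 lower in the colon. Cd63 was at 300.3 and 266 CPM in colonic MHCII+ libraries, against 30.1 and 40.3 CPM in splenic MHCII+ libraries. The groups lay far apart and Cd63 had the widest difference of the 38 genes (log2 fold change 3.01, SE 0.16, adjusted p = 2.1e-05). Lamp2 was at 189 and 159.6 CPM in colonic MHCII+ libraries, against 109 and 114 CPM in splenic MHCII+ libraries. It rose to a lesser degree, without overlap (log2 fold change 0.64, SE 0.11, adjusted p = 0.0028). Lamp1, at 459 and 378 CPM in colonic against 263 and 292 CPM in splenic MHCII+ libraries, and Scarb2, at 93.7 and 98.95 CPM in colonic against 71.7 and 74.5 CPM in splenic MHCII+ libraries, were also called higher in the colon. Both calls were lost with limma on log2(TPM + 1) (adjusted p = 0.083 for Lamp1 and 0.16 for Scarb2), and that of Scarb2 also without splenic library 1 (0.077). Laptm5 and Npc1 were lower: Laptm5 was at 457 ± 23.7 CPM in colonic MHCII+ cells and 749.8 ± 28.8 CPM in splenic MHCII+ cells, and Npc1 at 66.9 ± 5.71 CPM in the colon and 96.4 ± 1.31 CPM in the spleen (mean ± SD, n = 2 libraries each, as for later values in this form). Mcoln1, at 34.5 ± 2.06 CPM in the colon and 48.1 ± 3.31 CPM in the spleen, and Cln3, at 75.3 ± 8.87 CPM in the colon and 108 ± 0.888 CPM in the spleen, were lower too. The calls of Mcoln1 and Cln3 were lost under the effective length offset (adjusted p = 0.12 and 0.31) and under limma (0.062 and 0.13), and that of Mcoln1 also without splenic library 1 (0.083). Cd68 overlapped between the groups, at 235 and 164 CPM in colonic MHCII+ libraries and 202 and 220.1 CPM in splenic MHCII+ libraries.

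Glycosidase genes moved in both directions, with 5 higher and 3 lower in colonic MHCII+ cells. Gla was at 124 and 140.5 CPM in colonic MHCII+ libraries, against 39.4 and 15.2 CPM in splenic MHCII+ libraries. The splenic libraries lay lower and differed from each other, and Gla rose (log2 fold change 2.27, SE 0.40, adjusted p = 0.0031), with a log2 fold change of 3.10 without splenic MHCII+ library 1. Man2b1 was at 535 and 568 CPM in colonic MHCII+ libraries, against 1019.6 and 1047 CPM in splenic MHCII+ libraries. It fell, without overlap (log2 fold change -0.91, SE 0.10, adjusted p = 3.6e-04). Neu1 (78.3 ± 0.771 CPM in the colon and 55.98 ± 1.81 CPM in the spleen), Hexa (291 ± 2.57 CPM in the colon and 225 ± 11.6 CPM in the spleen), Gaa (64.03 ± 1.55 CPM in the colon and 48.1 ± 0.525 CPM in the spleen) and Glb1 (48.7 ± 6.90 CPM in the colon and 32.7 ± 0.695 CPM in the spleen) were higher in colonic than in splenic MHCII+ cells. Manba, at 25.8 ± 1.74 CPM in the colon and 37.7 ± 0.137 CPM in the spleen, and Gusb, at 148 ± 3.83 CPM in the colon and 189 ± 12.9 CPM in the spleen, were lower. Of these 6 genes, each call was lost in at least 1 of 10 alternatives. Those of Hexa, Glb1, Gaa and Gusb were lost without splenic library 1 (adjusted p from 0.055 to 0.12), those of Neu1, Hexa, Gaa and Glb1 with limma (0.066 to 0.98), and those of Manba (0.066) and Gaa (0.61) with the effective length offset. Gaa was also lost without splenic library 2 (0.062), and with limma its log2 fold change was 0.01.

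Glycosaminoglycan enzymes were lower in the colon for 5 of 6 genes and higher for 0. Sgsh was at 6.06 and 6.19 CPM in colonic MHCII+ libraries, against 20.8 and 23.4 CPM in splenic MHCII+ libraries. It was low in both colonic libraries and fell (log2 fold change -1.85, SE 0.17, adjusted p = 1.8e-04). Idua (15.7 ± 2.46 in colonic and 28.9 ± 2.27 CPM in splenic MHCII+ cells), Ids (27.6 ± 5.05 CPM in the colon and 49.9 ± 4.60 CPM in the spleen), Arsb (38.5 ± 1.79 CPM in the colon and 61.4 ± 4.80 CPM in the spleen) and Galns (15.4 ± 1.10 CPM in the colon and 23.9 ± 2.89 CPM in the spleen) were also lower. Naglu, at 28.3 ± 0.0104 CPM in the colon and 25.2 ± 0.0296 CPM in the spleen, did not pass (adjusted p = 0.28). The call of Galns was lost without splenic library 2 (adjusted p = 0.093).

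Of the lipid genes, 1 was higher and 2 lower in colonic MHCII+ cells. Lipa was at 44.2 and 47.6 CPM in colonic MHCII+ libraries, against 94.7 and 90.1 CPM in splenic MHCII+ libraries. It fell in the colon without overlap (log2 fold change -1.01, SE 0.10, adjusted p = 1.9e-04). Asah1, at 144 ± 4.55 CPM in the colon and 175 ± 1.42 CPM in the spleen, was lower, and Npc2, at 227 ± 15.6 CPM in the colon and 176 ± 12.3 CPM in the spleen, was higher. Each of these calls was lost in 5 of 10 alternatives, with adjusted p from 0.051 to 0.13 for Asah1 and from 0.050 to 0.37 for Npc2. Both were lost with the effective length offset and without colonic library 1, splenic library 1 or splenic library 2, Asah1 also in the fit of all 10 libraries and Npc2 also with limma. Arsa (22.9 ± 1.57 CPM in the colon and 29.02 ± 1.57 CPM in the spleen), Smpd1 (19.4 ± 0.114 CPM in the colon and 22.2 ± 1.14 CPM in the spleen), Pla2g15 (22.5 ± 2.99 CPM in the colon and 17.6 ± 3.62 CPM in the spleen) and Psap (3872 ± 451 CPM in the colon and 4334 ± 182 CPM in the spleen) did not pass. Arsa (adjusted p = 0.066) was called with limma and in the fit of all 10 libraries. Among the other luminal proteins Acp2 was the only one called, at 35.6 and 24.3 CPM in colonic MHCII+ libraries against 17.4 and 18.1 CPM in splenic MHCII+ libraries. Colonic library 1 was the highest, and the rise (log2 fold change 0.76, SE 0.20, adjusted p = 0.017) was lost without that library (adjusted p = 0.063), without splenic library 1 (adjusted p = 0.066) and with limma (adjusted p = 0.13). Grn (357 ± 4.48 CPM in the colon and 338 ± 1.29 CPM in the spleen), Tpp1 (68.7 ± 8.41 CPM in the colon and 58.4 ± 0.0897 CPM in the spleen), Acp5 (94.3 ± 21.8 CPM in the colon and 106 ± 6.88 CPM in the spleen), Dnase2a (29.1 ± 4.40 CPM in the colon and 27.2 ± 1.37 CPM in the spleen) and Creg1 (47.5 ± 8.24 CPM in the colon and 61.6 ± 2.91 CPM in the spleen) did not pass between colonic and splenic MHCII+ cells. Creg1 just missed the threshold (adjusted p = 0.052) and was called without a count filter, with limma and in the fit of all 10 libraries.

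Of the transcription factor genes 1 was called lower and 1 did not pass. Tfeb was at 24.5 and 26.99 CPM in colonic MHCII+ libraries, against 106 and 101 CPM in splenic MHCII+ libraries. The groups lay far apart, and Tfeb had the widest fall of the 38 genes (log2 fold change -2.01, SE 0.10, adjusted p = 1.6e-05). Tfe3 was at 63.6 and 53.2 CPM in colonic MHCII+ libraries, against 47.8 and 45.4 CPM in splenic MHCII+ libraries. It lay higher in both colonic libraries but just missed the threshold (log2 fold change 0.33, SE 0.12, adjusted p = 0.054), which it passed with RLE scaling (adjusted p = 0.048), with a correction for effective length (0.036), in a fit of all 10 libraries (0.048) and without colonic library 2 (0.017).

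**Figure D4:**
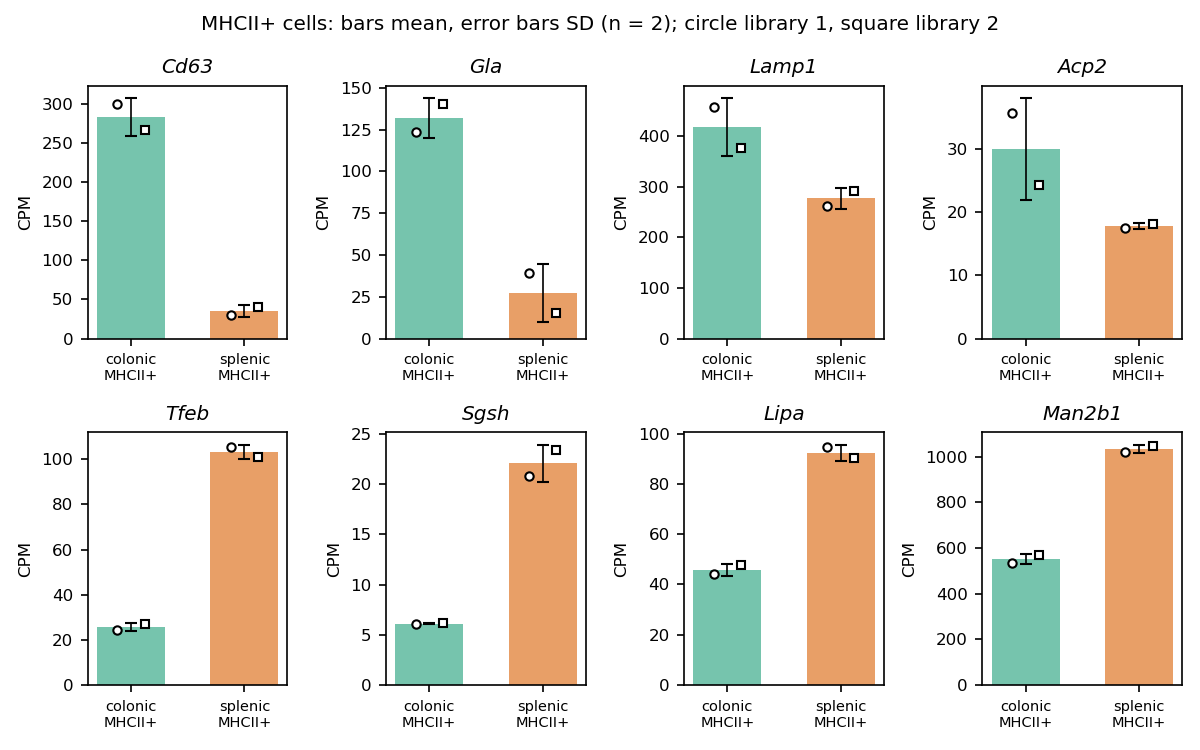
CPM (vertical axes) of 8 lysosomal genes in colonic and splenic MHCII+ cells (horizontal axes), with bars for the mean, error bars for the SD of 2 libraries and a symbol for each library. Cd63, Gla, Lamp1 and Acp2 in the upper panels were higher in the colon, and Tfeb, Sgsh, Lipa and Man2b1 in the lower panels were lower, with no overlap between the groups.

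Other lysosomal genes were taken from 6 lists of general knowledge with 109 genes in all. In CD11b+CD11c+ cells 65 of 105 tested were higher and 10 lower than in CD11c+ cells, that is 61.9% and 9.52% beside the 20.4% and 22.5% of all genes, with a median log2 fold change of 0.79. In CD11b+ cells 62 were higher and 13 lower, that is 59.0% and 12.4% beside 27% and 25%, with a median of 0.75. Subunits of the V-ATPase, the proton pump that acidifies lysosomes, were higher for 16 of 20 and lower for 1 in CD11b+CD11c+ cells. In CD11b+ cells 15 of 20 were higher and 2 lower. Atp6v0c, a subunit of its membrane ring, was at 584 ± 54.5 CPM in CD11b+CD11c+ cells, 503 ± 30.7 CPM in CD11b+ cells and 162 ± 38.3 CPM in CD11c+ cells (mean ± SD, n = 2 libraries each). Cathepsins, the lysosomal proteases, were higher for 9 of 13 in CD11b+CD11c+ cells and 11 of 13 in CD11b+ cells, with 1 lower in each. Their log2 fold changes ran from -4.99 to 3.20 in CD11b+CD11c+ cells and from -5.06 to 3.01 in CD11b+ cells. Ctsb, cathepsin B, was at 2414 ± 424 CPM in CD11b+CD11c+ cells, 1946 ± 144 CPM in CD11b+ cells and 368 ± 178 CPM in CD11c+ cells, and Ctss, cathepsin S, which trims the invariant chain of MHC class II, at 1489 ± 195 CPM in CD11b+CD11c+, 1353 ± 159.7 CPM in CD11b+ and 479 ± 159.96 CPM in CD11c+ cells.

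Other membrane proteins were higher for 12 of 18 in CD11b+CD11c+ cells and 11 of 18 in CD11b+ cells, with 1 lower in each. Slc15a3, a transporter of peptides and histidine and 1 of the higher genes, was at 868 ± 156 CPM in CD11b+CD11c+, 754 ± 106 CPM in CD11b+ and 165 ± 99.5 CPM in CD11c+ cells. Laptm4a, also higher in both, was at 233 ± 19.5 CPM in CD11b+CD11c+, 231 ± 13.03 CPM in CD11b+ and 148 ± 1.89 CPM in CD11c+ cells. Hydrolases outside the 38 went both ways, with 15 of 24 higher and 5 lower in CD11b+CD11c+ cells and 12 higher and 6 lower in CD11b+ cells. Gm2a, the ganglioside activator protein, was lower in both CD11b-bearing subsets, at 283 ± 19.7 CPM in CD11b+CD11c+ cells, 149 ± 13.7 CPM in CD11b+ cells and 596 ± 30.3 CPM in CD11c+ cells. Of 14 genes of the MiT family and lysosomal nutrient sensing, 8 were higher and 1 lower in each CD11b-bearing subset, with Lamtor3, a scaffold of that sensing complex, at 76.5 ± 7.36 CPM in CD11b+CD11c+, 69.5 ± 9.9995 CPM in CD11b+ and 39.03 ± 6.83 CPM in CD11c+ cells. Of the targeting and fusion genes 5 of 16 (31.25%) were higher in each, nearer to the share of all genes, with 1 lower in CD11b+CD11c+ and 2 in CD11b+ cells. Vps18, a subunit of the tethering complexes, was at 187 ± 27.2 CPM in CD11b+CD11c+ cells, 144 ± 7.63 CPM in CD11b+ cells and 55.4 ± 10.2 CPM in CD11c+ cells.

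Between the CD11b-bearing subsets 5 of these 105 genes were higher in CD11b+CD11c+ cells and 2 lower (4.76% and 1.90%, beside 3.79% and 5.84% of all genes; median log2 fold change 0.17), with rises in Gm2a (log2 fold change 0.92, adjusted p = 0.0059) and Atp6v0a1, a V-ATPase subunit (log2 fold change 0.72, adjusted p = 0.043). The 2 lower genes were the cathepsins Ctsk (log2 fold change -1.48, adjusted p = 0.007) and Ctse (log2 fold change -1.43, adjusted p = 0.02). Both were at low levels, Ctsk at 4.71 ± 0.722 CPM in CD11b+CD11c+ and 13.2 ± 0.720 CPM in CD11b+ cells. Ctse was at 4.92 ± 0.906 CPM in CD11b+CD11c+ and 13.3 ± 1.72 CPM in CD11b+ cells. In colonic MHCII+ cells 39 of 107 (36.4%) were higher and 34 (31.8%) lower than in splenic MHCII+ cells, shares near the 31.6% and 28.7% of all genes, with a median log2 fold change of 0.13. V-ATPase subunits had 10 higher and 3 lower of 21 (47.6% and 14.3%), cathepsins 8 and 4 of 13 (61.5% and 30.8%), and other membrane proteins 8 and 5 of 19 (42.1% and 26.3%). Hydrolases had 7 higher and 9 lower of 24 (29.2% and 37.5%), MiT family and nutrient sensing genes 5 and 4 of 14 (35.7% and 28.6%), and targeting and fusion genes 1 and 9 of 16 (6.25% and 56.25%). Slc15a3 was at 410.1 ± 30.01 CPM in colonic MHCII+ cells and 52.6 ± 0.195 CPM in splenic MHCII+ cells (log2 fold change 2.96, adjusted p = 4.8e-06). Gm2a was at 233 ± 15.9 CPM in colonic and 531 ± 2.58 CPM in splenic MHCII+ cells (log2 fold change -1.19, adjusted p = 1.1e-04), and Ctsb at 873 ± 12.01 CPM in colonic and 529 ± 19.5 CPM in splenic MHCII+ cells (log2 fold change 0.72, adjusted p = 9.0e-04). M6pr, a mannose phosphate receptor, was at 228 ± 6.45 CPM in colonic and 288 ± 34.6 CPM in splenic MHCII+ cells (log2 fold change -0.33, adjusted p = 0.04).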

How the data were processed

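Polyadenylated RNA of sorted cells was taken up in TRIzol and made into directional libraries, per the labels' protocols. Per the submitters' processing notes, kallisto 0.44.0 and sleuth were used with the build mm10; the sources used here give no index release or strand setting. Per the file headers, the deposited tables hold kallisto's estimated counts, which are not normalized for depth, and TPM values, computed on effective lengths, for 66760 transcripts. Since 88.9% of the lengths can be divided by 3, the index was one of coding sequences, and untranslated regions did not contribute reads.

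Transcripts were matched by identifier to GENCODE M21 (98.48% matched, giving 22607 genes). Unmatched transcripts, with 0.532 to 0.912% of a library's counts, were dropped. Gene counts are sums of the estimated counts, rounded. The 4 MHCII+ libraries and the 6 subset libraries were fitted separately by edgeR 4.0.16 and its quasi-likelihood F test (R 4.3.3, filterByExpr, TMM, group as the only term), and 15076 and 14225 genes were tested. The steps were tested on simulated data. Replicate libraries correlated at 0.982 to 0.993 on log2 CPM over genes, and a chi-square of their counts gave 10.8 to 38.5 per gene, so no 2 libraries of the same group were identical.

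Full statistics are given, in each comparison, for the 4 called genes with the largest rise, the 4 with the largest fall, Tfeb and Tfe3, and of each pathway list up to 2 called genes with the highest TPM were eligible to be named. The values of 1 such gene are not reported here. Other genes given with an adjusted p were chosen after their values were seen. The 38 genes, the pathway and marker lists and the rules were chosen with earlier results of these data known. Alternatives were RLE scaling, no count filter, DESeq2 1.42.0, an offset for effective length, limma 3.58.1 on log2(TPM + 1) of genes with at least 1 TPM in 2 libraries, a fit of all 10 libraries, a replicate block and leaving out each library. kallisto divides reads among transcripts, so shares of isoforms and levels of genes with many short annotated fragments carry an error that 2 libraries do not show. Transcripts shorter than 50% of the longest coding sequence of their gene held 67.2 to 78.0% of the TPM of Mcoln1, 66.4 to 82.5% of that of Cln3 and 57.5 to 65.2% of that of Creg1.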

Additional observations from a re-analysis of the deposited data

How the results depend on the processing

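No gene among the 38 was called in opposite directions under the alternatives run, but Cln3, called higher in CD11b+ than in CD11c+ cells, had a log2 fold change of -0.05 with the effective length offset, without a call. Of 343 recomputed values of the genes with the widest called differences and of Tfeb and Tfe3, 321 kept their side of the threshold, 18 were no longer past it and 4 passed it newly. In colonic against splenic MHCII+ cells the number of genes changed ranged from 17 to 30 with 1 library left out, from 5 to 13 for genes higher and from 12 to 17 for genes lower, the lowest numbers coming without splenic library 1. With limma on log2(TPM + 1), 3 genes were higher there in place of 11. Of all genes 54.4% were called in either direction with limma, in place of 60.3%. The median of all genes moved to -0.19 and that of the 38 genes to -0.31 on the log2 scale. In CD11b+ against CD11c+ cells, leaving out 1 library gave medians of 0.76 to 0.89 for the 38 genes and -0.05 to 0.0005 for all genes. In CD11b+CD11c+ against CD11c+ cells these were 0.87 to 1.07 and -0.13 to -0.03. In CD11b+CD11c+ against CD11b+ cells they were 0.09 to 0.31 and -0.02 to 0.10. There the number of the 38 genes changed, all of them higher, was 1 with the offset for effective length, 0 with limma and 4 in the fit of all 10 libraries. Of all genes 5.84%, 5.75% and 12.1% were called in these fits, beside the 9.63% given above. With a replicate block 31, 31 and 2 genes were changed in these 3 comparisons, and same-numbered libraries deviated together in only 1 of 3 pairs of groups (correlations 0.33, -0.05 and 0.0045), so the numbers were not taken to pair the samples. No paired analysis was possible for the MHCII+ cells because both splenic titles carry the same number. The causes of these changes were not tested, and having 2 libraries a group limits what could be detected.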
